A study of Homo sapiens with 18 samples.

Results

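CEBPA, CEBPB, CEBPD, CEBPE and CEBPG encode 5 members of the CCAAT/enhancer-binding protein (C/EBP) family of transcription factors, and the binding of the leukaemia fusion protein AML1-ETO was examined at these 5 genes among 19974 protein-coding genes. The members were chosen by name, and every deposited peak in the gene body, within 10 kb or within 50 kb of it was counted. These windows held 8 merged regions within 10 kb and 16 within 50 kb, of 35622 regions obtained by joining overlapping peaks of 4 lists. Occupancy was mapped by CUT&RUN, which uses an antibody to tether a nuclease to the bound protein inside cells and sequences the DNA that it cuts free. The material was Kasumi-1, an established t(8;21) acute myeloid leukaemia line, expressing AML1-ETO with a Flag tag. Cells were transduced, and viable GFP-positive cells were sorted 3 days later as control or as knock-down of the microRNA miR-130a. In each condition, 3 libraries were made with anti-ETO, 3 with anti-Flag and 3 with mouse IgG, 18 in all. All groups share the cell line, the tagged fusion, the transduction and the sort, and neither the control vector, the clonality of the line nor the origin of the tagged copy is given in the sources used here. The study asked whether AML1-ETO occupies other sites once miR-130a is knocked down.

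C/EBP proteins bind DNA as dimers through a basic leucine zipper. C/EBPα, from CEBPA, starts the granulocyte programme in myeloid progenitors, C/EBPε, from CEBPE, acts late in neutrophil maturation, and C/EBPβ and C/EBPδ, from CEBPB and CEBPD, are known from inflammatory and emergency myelopoiesis. C/EBPγ, from CEBPG, lacks a classical activation domain and often acts as a dimer partner. AML1-ETO keeps the DNA-binding Runt domain of RUNX1 and the corepressor-binding part of ETO, and low CEBPA is a known feature of t(8;21) leukaemia. CEBPA also has a well-described myeloid enhancer far downstream of the gene, which is why near and distant windows are given apart.

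The measurements are peak positions. Each antibody and condition had 1 list, with 14264 control anti-ETO, 22594 knockdown anti-ETO, 23162 control anti-Flag and 25961 knockdown anti-Flag peaks. The authors had also deposited the peaks of both antibodies in a condition (dual-antibody peaks) and their division into 8731 shared, 3059 control-unique and 4617 knockdown-unique peaks. Joining peaks that overlapped by 100 bp, out to their outer edges, gave 12234 of the 12247 control dual-antibody intervals exactly. The width of such an interval can therefore exceed the length called in any 1 list. Peak heights, scores and values of single libraries were not among the columns. The depth behind a call and the spread between the 3 libraries of a group are therefore unknown, no test between conditions was possible, and the counts below describe these lists. A peak call in a cell population cannot tell apart occupancy in fewer cells and weaker occupancy in each cell.

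The members fell into different patterns. CEBPA and CEBPG had a dual-antibody peak across the gene start in both conditions. CEBPB and CEBPD had dual-antibody peaks at the gene in control only: after knock-down anti-ETO still had peaks there, and the anti-Flag list had none within 10 kb. A dual-antibody peak within 10 kb in control and none after knock-down was found for 7.66% of protein-coding genes. For CEBPB, the nearest knockdown dual-antibody peak lay just outside this window, 11050 bp away. CEBPE had no peak of any list within 10 kb.

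The stretches before the annotated starts of CEBPA, CEBPB and CEBPG are shown because peak edges fell inside 2 of them. Each gives the 250 bases before the start, 5′ to 3′ on the gene's strand, from RefSeq on GRCh38.p14, with capitals for bases inside control peaks of both antibodies. They lie at chr19:33302535-33302784 (minus strand), chr20:50190333-50190582 (plus strand) and chr19:33373459-33373708 (plus strand).
CEBPA: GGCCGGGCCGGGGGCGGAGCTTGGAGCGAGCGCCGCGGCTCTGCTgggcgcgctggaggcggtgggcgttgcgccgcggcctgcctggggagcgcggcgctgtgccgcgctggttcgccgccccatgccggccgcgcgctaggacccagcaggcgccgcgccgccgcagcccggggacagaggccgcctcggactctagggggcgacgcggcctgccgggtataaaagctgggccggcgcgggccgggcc
CEBPB: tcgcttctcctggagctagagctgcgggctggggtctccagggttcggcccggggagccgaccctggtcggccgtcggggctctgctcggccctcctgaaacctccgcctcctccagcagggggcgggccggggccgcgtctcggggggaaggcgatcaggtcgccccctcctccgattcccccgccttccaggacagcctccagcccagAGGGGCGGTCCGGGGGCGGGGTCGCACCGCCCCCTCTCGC
CEBPG: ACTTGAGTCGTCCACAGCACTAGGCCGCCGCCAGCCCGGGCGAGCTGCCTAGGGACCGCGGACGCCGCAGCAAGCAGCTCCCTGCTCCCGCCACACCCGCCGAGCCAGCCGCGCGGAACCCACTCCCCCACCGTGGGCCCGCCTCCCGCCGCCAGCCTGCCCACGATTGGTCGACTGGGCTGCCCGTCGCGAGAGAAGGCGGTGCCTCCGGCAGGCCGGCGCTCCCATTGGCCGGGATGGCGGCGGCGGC

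The stretches are rich in G and C, with 81.2% for CEBPA, 75.6% for CEBPB and 76.0% for CEBPG, against a median of 58.0% over all 35116 promoter windows of the table. Capitals cover 45 bases at CEBPA, 40 at CEBPB and all 250 at CEBPG. After knock-down, anti-ETO peaks covered all 250 bases of each of the 3 stretches. Knockdown anti-Flag peaks covered 25 bases at CEBPA, 0 at CEBPB and 250 at CEBPG. None of the 3 stretches, nor the 250 bases before the CEBPE start, held the RUNX core TGTGGT or TGCGGT on either strand, which 16.3% of all such windows held. Likewise none held the C/EBP site TTGCNNAA (9.05% of all windows) or the ETS core CGGAAG (16.5%). The CEBPA stretch held TATAAA at position -30, counting back from -1 at the last base before the start (10.7% of all windows hold this motif). The match lay inside the anti-ETO peaks of both conditions and in the gap of the control anti-Flag peaks, and its last base alone lay inside a knockdown anti-Flag peak. The CEBPG stretch held 2 matches of CCAAT, both on the other strand (32.0% of all windows hold at least 1). The bases before the further CEBPB start held TATAAA at position -29 and CCAAT at position -245, both on the gene's strand. These letters say nothing of whether a factor binds, and peak sequence outside the promoter windows was not searched.

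**Figure D1:**
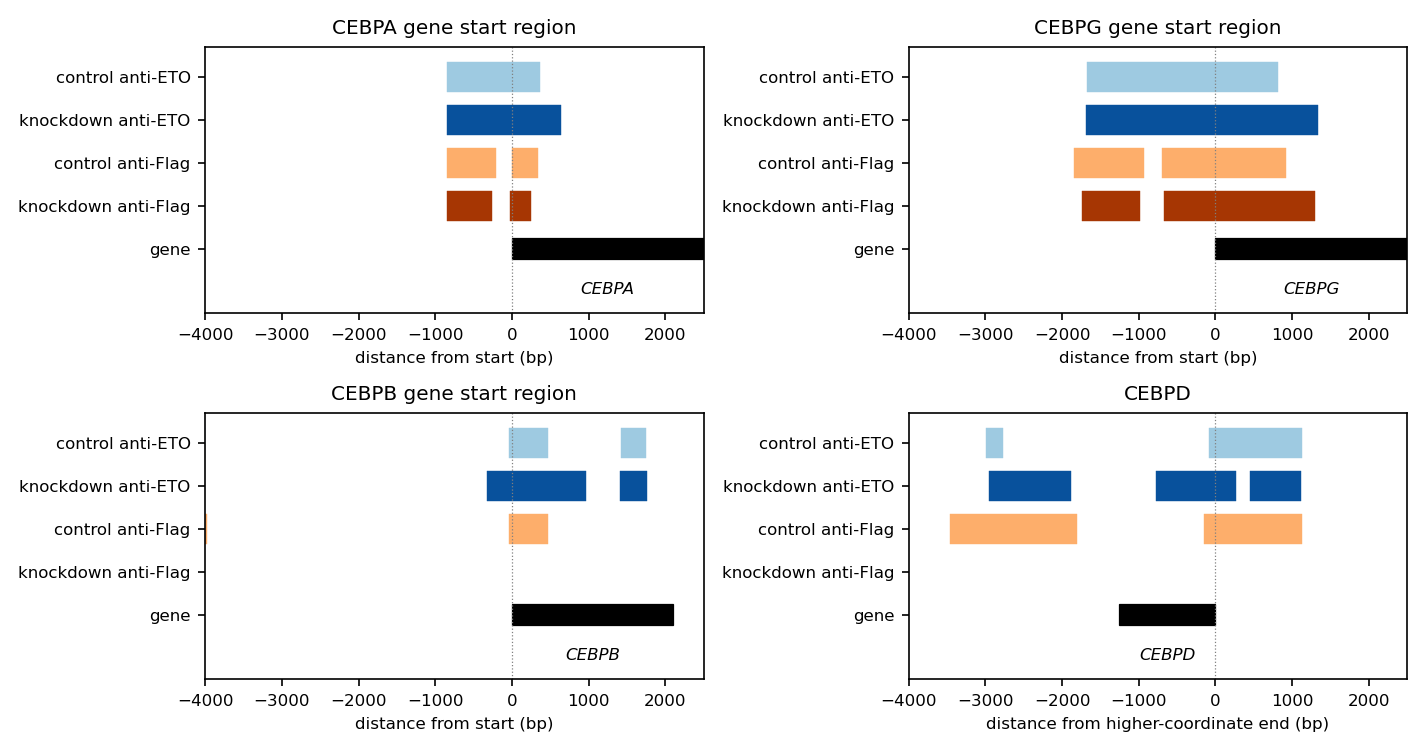
Peaks of the 4 single-antibody lists around the starts of CEBPA, CEBPG and CEBPB and around the higher-coordinate end of CEBPD, with distance in bp on the x axis and 1 row per list; black bars are gene bodies. Knockdown anti-Flag peaks are present at CEBPA and CEBPG and absent at CEBPB and CEBPD, where knockdown anti-ETO peaks are drawn.

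CEBPA lies on chromosome 19 (33299934 to 33302534, minus strand). Within 10 kb it had 1 control anti-ETO, 1 knockdown anti-ETO, 2 control anti-Flag and 3 knockdown anti-Flag peaks. The authors' shared list held 1 peak there, of 1485 bp (33301897 to 33303381), running from 847 bp before the gene start to 637 bp past it. It also reached the divergent long noncoding gene CEBPA-DT. The control anti-ETO peak at the start was 1209 bp wide and the knockdown one 1481 bp, wider than 88.8% and 91.7% of the peaks of their own lists.

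Anti-Flag divided the CEBPA start into separate peaks in both conditions. Control anti-Flag peaks lay at 33302194 to 33302533 (340 bp) and 33302740 to 33303381 (642 bp), so the gap between them took in most of the stretch printed above. Knockdown anti-Flag peaks lay at 33302280 to 33302559 (280 bp) and 33302788 to 33303381 (594 bp). The upstream edge at 33303381 was the same base in control anti-ETO, control anti-Flag and knockdown anti-Flag. An anti-ETO peak overlapping at least 2 anti-Flag peaks was found for 6.74% of all control and 9.18% of all knockdown anti-ETO peaks. Among anti-ETO peaks of at least 1 kb, as here, the shares were 25.4% and 43.0%. The third knockdown anti-Flag peak within 10 kb (33298340 to 33298612, 273 bp) lay 1322 bp beyond the end of the gene and had no partner in any other list.

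Downstream of CEBPA, all peaks between 10 and 50 kb lay on the 3′ side of the gene, in 4 regions outside any annotated gene. The widest was a shared peak of 2661 bp (33259359 to 33262019), 40.5 to 43.2 kb downstream of the CEBPA start, at about the distance of the known downstream enhancer. Its nearest gene other than pseudogenes was SLC7A10, an amino acid transporter gene 33509 bp away. In control, anti-Flag covered it with 1 peak of 2661 bp, wider than 99.0% of that list, and anti-ETO with 1 peak of 1306 bp. After knock-down each antibody had 2 peaks in the same stretch, of 498 and 1507 bp for anti-ETO and of 537 and 960 bp for anti-Flag. The authors' dual-antibody lists accordingly held 1 interval there in control and 2 in knockdown.

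A smaller shared peak of 609 bp lay 15.1 to 15.7 kb downstream of the CEBPA start (33286831 to 33287439). It was called in all 4 lists, with 421 bp in control anti-ETO, 491 bp in control anti-Flag, 609 bp in knockdown anti-ETO and 591 bp in knockdown anti-Flag. The only unique peak of CEBPA was a knockdown-unique peak of 913 bp (33273093 to 33274005), 25929 bp from the end of the gene. At this site control anti-Flag already had a peak of 562 bp and control anti-ETO had none, while knockdown lists had 566 bp (anti-ETO) and 793 bp (anti-Flag). The remaining region, 19.1 kb from the gene, was called by knockdown anti-Flag alone (322 bp).

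Close to the limit of 50 kb, the enhancer-side peak at 37915 bp from the gene was the farthest one inside. A further shared peak of 875 bp (33248821 to 33249695), called in all 4 lists, lay 50239 bp away and was therefore not counted. CEBPA had 6 regions within 50 kb, a number reached by 29.6% of protein-coding genes, and 3 regions called in all 4 lists, reached by 20.9%.

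**Figure D2:**
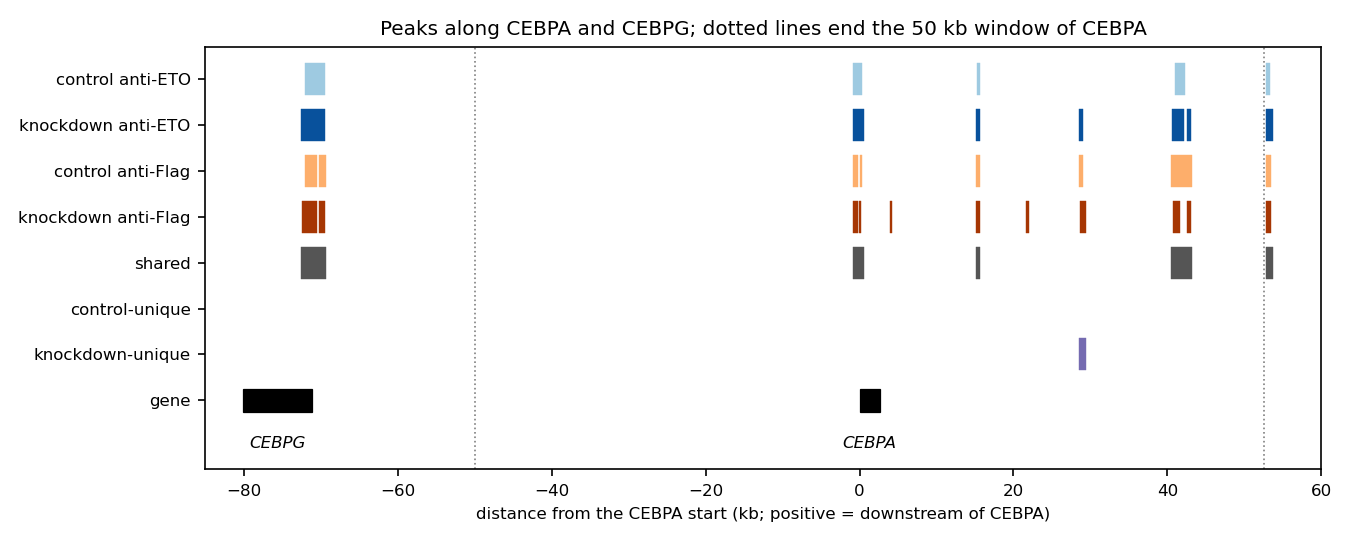
Peaks along CEBPA and CEBPG, with distance from the CEBPA start in kb on the x axis, 1 row per single-antibody list and per derived list, and dotted lines at the ends of the 50 kb window of CEBPA. Shared peaks stand at both gene starts and downstream of CEBPA, the 1 knockdown-unique peak stands 25.9 kb from the end of CEBPA, and the control-unique row is empty.

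CEBPG is the neighbour of CEBPA on chromosome 19 (33373709 to 33382686, plus strand), and the peaks at the CEBPA start lay 70328 bp from it. It had a single region, within 10 kb, called in all 4 lists: a shared peak of 3186 bp (33371864 to 33375049) across the gene start. The ends of this shared peak were those of a control anti-Flag and a knockdown anti-ETO peak, and no single list had a peak of that width. Of all shared peaks, 4.56% were at least 3 kb wide. The anti-ETO peak measured 2498 bp in control and 3034 bp after knock-down. Anti-Flag again had 2 peaks below the anti-ETO peak in each condition, of 909 and 1614 bp in control and of 761 and 1977 bp after knock-down. The gap between them lay upstream of the gene start and left the printed stretch covered. Between 10 and 50 kb of CEBPG no list had a peak.

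CEBPB lies on chromosome 20 (50190583 to 50192690, plus strand). Within 10 kb, control lists held 3 anti-ETO and 2 anti-Flag peaks, and knockdown lists held 2 anti-ETO and 0 anti-Flag peaks. At the gene start, control anti-ETO and control anti-Flag gave the same interval, 50190543 to 50191052 (510 bp), which was a control-unique peak. After knock-down anti-ETO called 1290 bp there (50190262 to 50191551), and anti-Flag made no call. The second control-unique peak, 408 bp (50186196 to 50186603), lay 3980 bp upstream of the gene inside the antisense gene CEBPB-AS1, and neither antibody had a knockdown call there.

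The last CEBPB region within 10 kb was called by anti-ETO alone, with 319 bp in control (50192011 to 50192329) and 355 bp after knock-down (50191992 to 50192346). It lay inside the CEBPB body, over the annotated start of CEBPB-AS1, which is transcribed from the other strand. Of all merged regions, 1.63% were called by anti-ETO in both conditions and by anti-Flag in neither. The 250 bases before the CEBPB-AS1 start held 1 RUNX core, where 16.3% of all such windows hold at least 1. It was the only RUNX match in the windows of CEBPA, CEBPA-DT, CEBPB, CEBPB-AS1, CEBPE and CEBPG. Only these start windows were searched, so the rest of the peaks, the distal peaks and CEBPD were not. Whether AML1-ETO binds through this match was not tested. The match is shown in capitals with 9 bases either side (chr20:50192252-50192275, minus strand).
CEBPB-AS1 site: atctgcatgTGCGGTtggtttgga

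Between 10 and 50 kb, all CEBPB peaks were upstream. A shared peak of 1408 bp (50153314 to 50154721) lay 35862 bp away across the higher-coordinate end of PEDS1, a plasmanylethanolamine desaturase gene, so it need not belong to CEBPB. The 366 bp knockdown-unique peak (50179168 to 50179533), 11050 bp from CEBPB, overlapped a control anti-Flag peak of 440 bp and no control anti-ETO peak. Its knockdown anti-ETO peak was 181 bp wide, wider than only 3.18% of that list. The remaining region, 177 bp at 21.1 kb, was called by knockdown anti-ETO alone.

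CEBPD lies on chromosome 8 (47736913 to 47738164) and is absent from the promoter table, so its strand was not read from a file. It had 2 regions, both within 10 kb and both with a control-unique peak. The first control-unique peak (47738016 to 47739300, 1285 bp) covered the higher-coordinate end of the gene and the sequence beyond it. Control anti-ETO called 1217 bp there and control anti-Flag 1280 bp. Knockdown anti-ETO had 2 peaks at the site, of 1039 bp (47737390 to 47738428) and 665 bp, and knockdown anti-Flag had none. The merged region was therefore wider than the control-unique peak, at 1911 bp (47737390 to 47739300). The second control-unique peak (47734704 to 47736364, 1661 bp) lay 549 bp from the other end of the gene and overlapped the end of the neighbouring gene SPIDR, which acts in homologous recombination. Control anti-Flag called all 1661 bp of it and control anti-ETO 228 bp, against 1068 bp for knockdown anti-ETO and no knockdown anti-Flag call.

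CEBPE, on chromosome 14 (23117306 to 23119255, minus strand), had no call at the gene. Its only region within 50 kb lay 22210 bp from it, inside ACIN1, a gene for a chromatin condensation and splicing factor. The region overlapped the edge of an annotated start window of ACIN1, so it need not belong to CEBPE. Control anti-ETO called 370 bp there and control anti-Flag nothing. Knockdown anti-ETO called 610 bp and knockdown anti-Flag 324 bp, which made it a knockdown-unique peak of 610 bp (23094487 to 23095096). Of all knockdown-unique peaks, 5.83% had a control call by anti-ETO only, as this one did, and 55.1% had a control call by anti-Flag only, as those near CEBPA and CEBPB did.

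**Figure D3:**
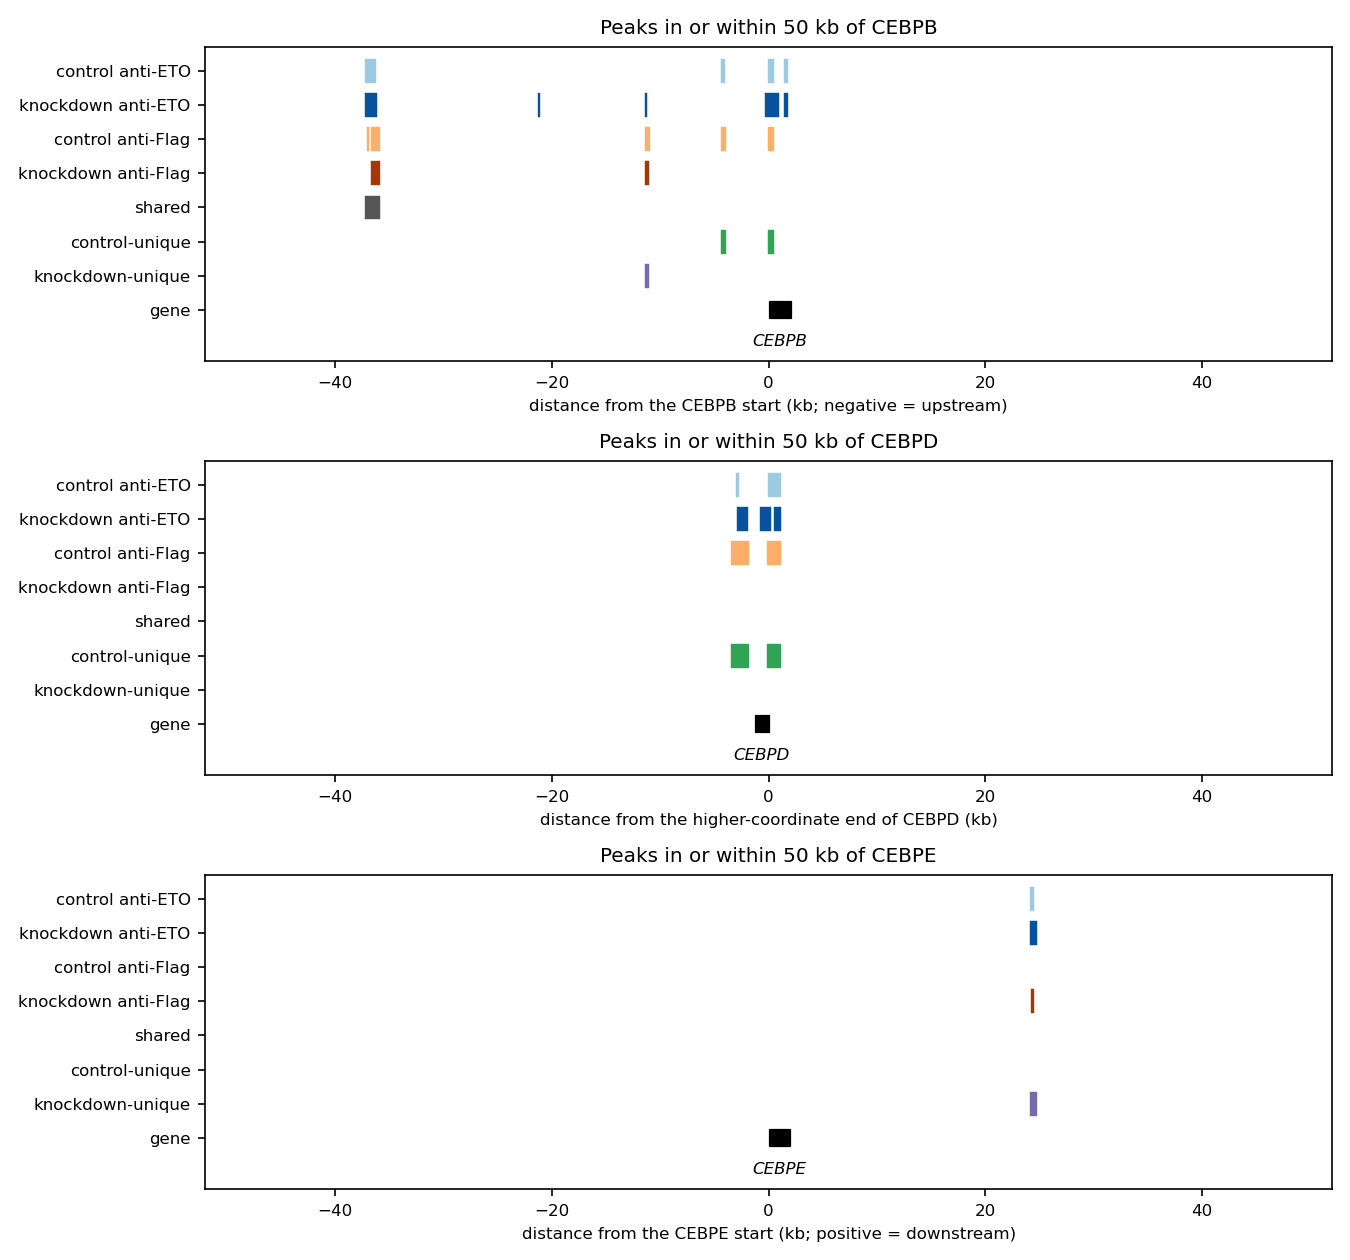
Peaks in or within 50 kb of CEBPB, CEBPD and CEBPE, with distance in kb from the gene start (from the higher-coordinate end for CEBPD) on the x axis and 1 row per list. Control-unique peaks stand at CEBPB and CEBPD within 10 kb, and the knockdown-unique peaks near CEBPB and CEBPE stand 11050 and 22210 bp from the genes.

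Counted over the family, 4 of the 5 members had a control anti-ETO peak within 10 kb, against 47.6% of protein-coding genes. A control anti-Flag peak was also found for 4 members (50.2% of protein-coding genes) and a knockdown anti-ETO peak for 4 (53.8%). A knockdown anti-Flag peak was found for 2 members, CEBPA and CEBPG (42.2%). Both lie on chromosome 19, where the share was 70.2%. Dual-antibody peaks within 10 kb were found for 4 members in control (43.8%) and 2 after knock-down (39.4%, and 63.6% on chromosome 19). The 2 members with one in control alone were CEBPB and CEBPD (7.66%). Anti-ETO peaks in both conditions with an anti-Flag peak in control alone were found for the same 2 members and for 6.45% of protein-coding genes.

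Within 10 kb, 2 members had a shared peak (35.1% of protein-coding genes), 2 had a control-unique peak (16.9%) and 0 had a knockdown-unique peak (18.4%). The 2 with a shared peak, CEBPA and CEBPG, lie on chromosome 19, where 53.6% of protein-coding genes had one within 10 kb. With 5 genes these counts are coarse, and nothing particular to the family is read from them.

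Within 50 kb, all 5 members had an anti-ETO peak in control (61.7% of protein-coding genes) and after knock-down (65.8%). Anti-Flag peaks were found for 4 members in control (62.6%) and for 4 after knock-down (54.2%), but not for the same 4: CEBPE lacked one in control and CEBPD lacked one after knock-down. Dual-antibody peaks were likewise found for 4 members in control (57.7%) and 4 after knock-down (51.9%). The wider window held shared peaks of 3 members (48.4%), control-unique peaks of 2 (30.2%) and knockdown-unique peaks of 3 (29.5%). All 4 control-unique peaks of the family lay within 10 kb of their gene (CEBPB or CEBPD), and all 3 knockdown-unique peaks lay between 10 and 50 kb. Over all protein-coding genes, the shares with such a peak within 10 kb were close, at 16.9% for control-unique and 18.4% for knockdown-unique. The distances of all unique peaks from genes were not compared, so no shift in distance is read from these few peaks. With the longer lists shortened by width to the 14264 peaks of control anti-ETO, knockdown-unique peaks within 50 kb numbered 1 and control-unique peaks 4. This cut drops narrow peaks of both knockdown lists and of control anti-Flag, and none of control anti-ETO, so it does not treat the conditions evenly.

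Of the 12 shared or unique peaks within 50 kb, 5 were shared, 4 control-unique and 3 knockdown-unique, against 53.2%, 18.6% and 28.1% of all such peaks. Of the 4 control-unique peaks, 3 had a knockdown call by anti-ETO only, as had 74.7% of all control-unique peaks, and 1 had a knockdown call by neither antibody, as had 20.2%. By list combination, 5 of the 16 regions (31.2%) were called in all 4 lists, against 24.8% of all regions. Another 3 were called in every list but knockdown anti-Flag, against 6.48% of all regions. These 3 were the CEBPB start and both CEBPD regions.

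Covered length was taken beside the number of calls. Within 10 kb, peaks of control anti-ETO covered 1209 bp at CEBPA, 2498 bp at CEBPG, 1219 bp at CEBPB and 1445 bp at CEBPD. Knockdown anti-ETO covered more at each of these 4 genes, with 1481, 3034, 1645 and 2772 bp in the same order. The whole knockdown anti-ETO list also covered more of the genome, 15.0 Mb against 8.97 Mb in control. Anti-Flag coverage within 10 kb was 982 bp in control and 1147 bp after knock-down at CEBPA, and 2523 and 2738 bp at CEBPG. The knockdown value at CEBPA includes the 273 bp peak beyond the end of the gene. In the region across the CEBPA start alone, anti-Flag covered 982 bp in control and 874 bp after knock-down. Within 10 kb, anti-Flag coverage was 911 and 0 bp at CEBPB and 2941 and 0 bp at CEBPD. The whole anti-Flag lists covered 13.5 Mb in control and 13.2 Mb after knock-down.

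**Figure D4:**
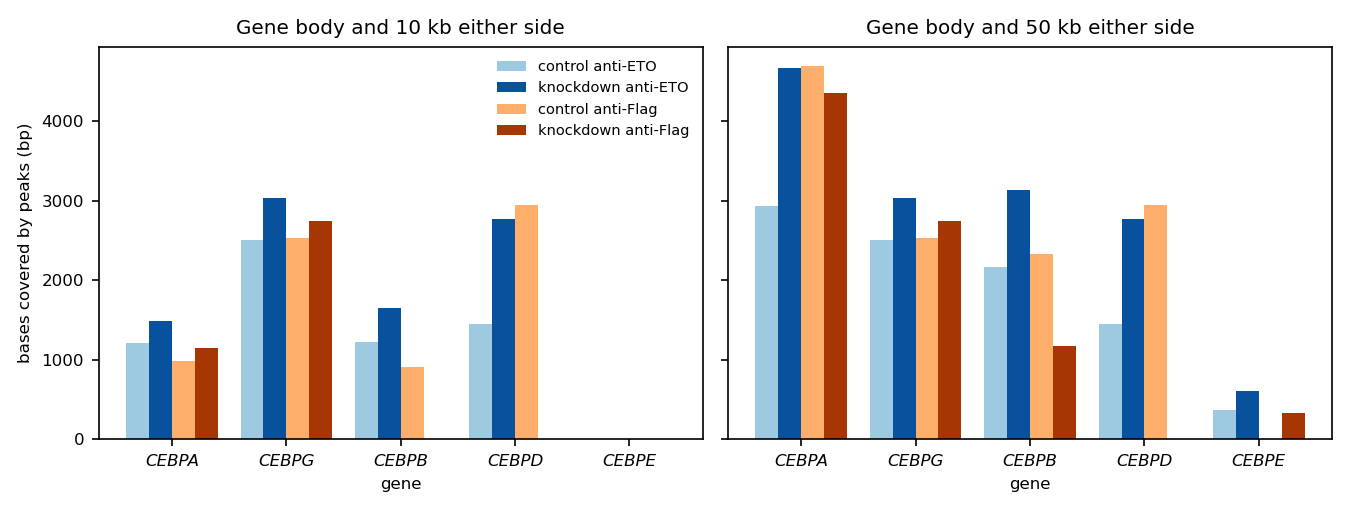
Bases covered by peaks in the gene body and 10 kb (left) or 50 kb (right) either side of each member, in bp on the y axis, with 1 bar per single-antibody list. There are no error bars since the lists hold no value per library. Knockdown anti-Flag bars are missing at CEBPB and CEBPD on the left, and CEBPA reaches 4696 bp of control anti-Flag coverage on the right.

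Genes with the most similar coverage were found by the distance between covered lengths in the 4 lists and both windows, on a log2 scale with 1 bp added. Nearest to CEBPA were EIF3L (distance 0.449), RBM4 (0.574) and RAB1A (0.646). Nearest to CEBPG were IDUA (0.178), FBXL17 (0.269) and FZD2 (0.304). The genes closest to CEBPB were TXNDC17 (0.335), LONP2 (0.694) and LOC107987020 (0.777), and those closest to CEBPD were ZFAT (0.573), CEP250 (0.945) and ATP6V1A (1.32). All 6 had anti-ETO coverage in both conditions and no knockdown anti-Flag coverage within 10 kb. This follows from choosing them by these same lengths and is no separate result. For CEBPE the nearest genes were TET1 (0.413), ETFBKMT (0.57) and METTL2B (0.586). None of these had a peak within 10 kb, again by the way they were chosen.

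Other genes of C/EBP biology were counted from 3 lists with 43 genes in all. Of the 14 regulators and partners of C/EBPs, 11 had a peak of some list within 10 kb (58.4% of protein-coding genes). A dual-antibody peak was found for 7 in control (43.8% of protein-coding genes) and 7 after knock-down (39.4%), a control-unique peak for 4 (16.9%) and a knockdown-unique peak for 4 (18.4%). This list includes RUNX1, with 8 shared and 2 control-unique peaks, and SPI1, the gene of the myeloid factor PU.1, with 3 shared and 1 knockdown-unique peaks. Windows include the gene body, so a longer gene has a wider window, and these counts were not scaled by length. TRIB1, whose product promotes C/EBPα degradation, had 2 shared peaks and 1 control-unique peak. TRIB3 had 1 control-unique and 2 knockdown-unique peaks, and CALR had 1 of each beside 4 shared peaks. MYB had 1 knockdown-unique peak beside 1 shared one. TRIB2, KLF4 and TAL1 had no peak.

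Of the 20 myeloid genes whose regulatory regions C/EBPs bind, 14 had a dual-antibody peak within 10 kb in control and 14 after knock-down, against the 43.8% and 39.4% of protein-coding genes given above. Control-unique peaks were found within 10 kb of 6 of them (16.9% of protein-coding genes): CSF3R, the G-CSF receptor gene, CSF2RA and ELANE with 1 each, and ITGAM, FCGR1A and MYC with 2 each. CSF3R and CSF2RA had no knockdown dual-antibody peak in this window. Knockdown-unique peaks were found for 9 (18.4% of protein-coding genes), with 8 at PRTN3, 7 at ELANE, 3 at IL6R, 2 at AZU1 and 1 each at LTF, LCN2, ITGAM, FCGR1A and ID2. PRTN3, ELANE and AZU1 encode neutrophil serine protease family members and are neighbours on chromosome 19, so their windows share peaks. Among protein-coding genes of chromosome 19, 43.2% had a knockdown-unique peak within 10 kb, so their counts are not read as particular to these genes. CAMP, S100A8, S100A9 and KLF5 had no peak within 10 kb.

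Of the 9 related or dimerising basic leucine zipper genes, 6 had a dual-antibody peak within 10 kb in control (43.8% of protein-coding genes) and 6 after knock-down (39.4%). Control-unique peaks were found for 3 genes (16.9% of protein-coding genes), with 2 at NFIL3, 1 at DBP and 1 at FOS. Knockdown-unique peaks were also found for 3 genes (18.4%), with 1 at DBP, 2 at TEF and 1 at FOS. HLF had no peak, and JUN had a knockdown anti-ETO peak only.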

How the data were processed

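The deposited files were 9 interval lists with chromosome, start and end and no other measurement. Per the submitters' processing notes, fastp 0.19.5, Bowtie2 2.3.5, MACS2 2.2.5, HOMER 4.8 and the builds hg38 and sacCer3 were used, with no role, threshold or order given. The use of IgG libraries and the handling of replicates are not given in the sources used here. Per the labels' protocols, 200000 cells were used per condition, and about 40 M reads of 75 bp were planned per library. List length depends on depth and threshold, and a longer list brings more unique peaks.

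Gene positions and promoter sequences came from RefSeq on GRCh38.p14. Of the 5 members, 4 had a promoter entry. A peak belonged to a window if they shared at least 1 bp, positions count from 1, and distances run to the nearer end of the gene. Counts used Python 3.11.15 and pandas 2.3.3, and bedtools 2.31.1 gave equal counts for all 19974 genes in 6 lists. Interval functions were tested on simulated lists, with 1200 of 1200 planted overlaps recovered. Named genes are the members, the gene nearest each of their peaks, 3 lists of C/EBP-related genes (those with unique peaks or with no peak within 10 kb, and RUNX1 and SPI1), and the 3 genes nearest in coverage. Members and lists were chosen with earlier results of these data known. The TATAAA and CCAAT motifs were chosen after the sequences were seen. Alternatives changed flanks, overlap rules, list lengths and the background genes.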

Additional observations from a re-analysis of the deposited data

How the results depend on the processing

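Of 142 counts recomputed under the alternatives, 130 stayed within 1.5 times the value reported. With a flank of 25 kb in place of 10 kb, 4 members had a knockdown anti-Flag peak and 4 a knockdown dual-antibody peak, in place of 2. The members gained were CEBPB, by peaks 11050 bp away, and CEBPE, by peaks 22.2 kb away. CEBPB then had dual-antibody peaks in both conditions, and CEBPD in control only. In the wider 50% of each list, control anti-ETO peaks numbered 4 within 10 kb and 6 within 50 kb of the members (7 and 11 in full), knockdown anti-Flag peaks 3 and 8 (5 and 13 in full), and knockdown dual-antibody peaks 5 within 50 kb (9 in full). With the longer lists shortened by width to the 14264 peaks of control anti-ETO, which kept all its peaks, knockdown anti-Flag peaks within 10 kb numbered 3. Knockdown-unique peaks within 50 kb then numbered 1. Rebuilt with an overlap of 50% of both peaks, knockdown dual-antibody peaks within 10 kb numbered 1, and shared peaks 1 within 10 kb and 2 within 50 kb, in place of 2, 2 and 5. By construction, a wider flank can only add members, the width settings drop the narrower peaks of a list, and the 50% rule accepts fewer overlaps. Among genes with a body up to 10 kb, 40.0% had a control dual-antibody peak within 10 kb, and on chromosome 19 60.2% did. No alternative could leave out a replicate. No paired analysis was possible because the lists hold no value per library.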

Other observations

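Peaks between 50 and 100 kb of the members were listed as well. A control-unique peak of 1354 bp (chromosome 19, 33199326 to 33200679) lay 99255 bp from CEBPA inside LRP3, a receptor gene, and each single-antibody list had a call in the region, with 371 bp for knockdown anti-Flag. Upstream of CEBPB, 1 shared peak of 891 bp (chromosome 20, 50109845 to 50110735) lay 79848 bp away inside UBE2V1. A region called by anti-ETO in both conditions, 76975 bp away, overlapped the start window of UBE2V1. The knockdown peak covered that window whole and the control peak only its edge. Around CEBPD no list had a further peak up to 100 kb. Near CEBPE, knockdown anti-ETO alone had 2 peaks, of 174 bp in CDH24 at 60749 bp and of 393 bp at PSMB5, a proteasome subunit gene, at 81888 bp.

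The CEBPB start interval of 510 bp was identical, base for base, in control anti-ETO and control anti-Flag. Such identity was found for 80 of the 14264 control anti-ETO peaks (0.561%), while 6.59% shared their start and 6.22% their end with a control anti-Flag peak.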
